A study of Mus musculus with 31 samples.

Results

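Transcripts of 34 nuclear receptor genes other than the estrogen-related receptors (ERRs) were measured in mouse liver and skeletal muscle RNA-seq data from a study of insulin and ERRα. The 34 genes were listed by symbol, with the ERR genes and the Nr1d genes left out, and all 34 were found among the 35275 gene identifiers of the count table for the insulin experiment and the 54532 of the table for the ERRα mutant experiment. Nuclear receptors are transcription factors, many of which are switched by a small lipophilic ligand such as a steroid, a bile acid, a fatty acid, a retinoid or thyroid hormone. Most bind DNA as homodimers or as partners of a retinoid X receptor (RXR), and several, among them LRH-1 and the NR4A receptors, can bind as monomers to a short site related to the ERR element.

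All mice were males of C57BL/6N background, 2 to 3 months old, compared with littermates and kept on a normal diet. In the insulin experiment, wild-type (WT) mice and mice lacking ERRα in the whole body (ERRα-/-) were fasted for 12 h overnight and injected intraperitoneally with saline or with insulin at 1 unit/kg, and livers were taken 4 h later, at zeitgeber time 6. There were 4 livers in the WT saline group, 4 in the WT insulin group, 4 in the ERRα-/- saline group and 3 in the ERRα-/- insulin group (replicates 1, 2 and 4). In the mutant experiment, livers and skeletal muscles came from ERRα3SA mice, in which a germline CRISPR edit replaced 3 serines of ERRα by alanines, and from WT littermates, with 4 samples per tissue and genotype. These mice were sampled between zeitgeber times 2 and 6, and the labels of the 16 samples give no feeding state and no treatment. Nor do they state if livers and muscles that carry the same number were taken from the same animal. Both alleles are carried by every cell of the animal from conception, so liver values cannot be told apart from responses to the allele in other organs.

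The labels were checked with Esrra, the targeted gene, in counts scaled to library size (CPM, with TMM factors). Esrra stood at 32.2, 51.3, 42.7 and 40.6 CPM in WT saline livers and 53.8, 96.1, 56.0 and 59.0 in WT insulin livers. In ERRα-/- livers it stood at 1.63, 0.703, 1.15 and 1.04 after saline and 0.833, 0.576 and 0.299 after insulin. Every ERRα-/- liver was therefore far below every WT liver. The ERRα3SA edit changes codons and leaves the transcript in place: Esrra stood at 28.4, 26.9, 28.0 and 28.7 in WT littermate livers and 29.2, 24.8, 21.4 and 18.7 in ERRα3SA livers. In muscle it stood at 90.5, 82.4, 67.2 and 78.1 in WT and 23.6, 135, 128 and 100.1 in ERRα3SA samples. ERRα3SA muscle replicate 1 held the lowest of these muscle values. Summed CPM of 5 hepatocyte markers was between 50302 and 97894 in the livers and at most 1.26 in the muscles, which separates the tissues as labelled.

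A gene was called in a comparison of treatments or genotypes when its unadjusted p was under 0.05 and its fold at least 1.2, an interaction when its unadjusted p was under 0.05, and WT muscle against WT liver when its adjusted p was under 0.05 and its fold at least 2. The p-values weigh an effect against the spread between samples of the same group, and the ± after a log2 fold change (log2FC) is its standard error. With insulin in WT liver, 11 of 32 tested members were called, 3 higher and 8 lower (34.4%), where 2322 of 13463 genes were called (17.2%). At adjusted p < 0.05 there were 4 members, where 425 genes passed (3.16%), and the member median was -0.09 against 0.00 for all genes. DESeq2 gave 7 members here, where 936 genes passed (6.95%). With insulin in ERRα-/- liver, 13 of 32 members were called, 4 higher and 9 lower (40.6%), where 2353 of 13684 genes were called (17.2%), and 2 passed at adjusted p < 0.05, where 398 genes did (2.91%). DESeq2 gave 8 members, where 988 genes passed (7.22%). The share of members called was thus above that of all genes in each genotype. Vdr and Hnf4g had too few counts to be tested in either.

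Between ERRα-/- and WT livers after saline, 4 of 32 members were called, 2 higher and 2 lower (12.5%), where 1520 of 13481 genes were called (11.3%), so with all livers the shares were close. None had adjusted p < 0.05 with edgeR, where 11 genes did (0.0816%), and DESeq2 called 4 (12.2% of all genes), 0 at adjusted p (1.84% of all genes). The count was 2 (6.25%) without ERRα-/- saline replicate 3 (10.1% of all genes) and 2 without WT saline replicate 4 (9.42%). After insulin, 7 of 33 members were called, 2 higher and 5 lower (21.2%), where 1365 of 13665 genes were called (9.99%). None had adjusted p < 0.05 with edgeR, where 8 genes did (0.0585%), and DESeq2 called 8 (10.9% of all genes), 1 at adjusted p (1.76% of all genes). The count was 4 (12.1%) without ERRα-/- insulin replicate 1 (7.27% of all genes). In both fits the share of members was above that of all genes. The difference between the insulin effects of the genotypes (ERRα-/- minus WT) was called for 7 of 33 members, 4 positive and 3 negative (21.2%), where 1289 of 14670 genes were called (8.79%). None of these 7 had adjusted p < 0.05 with edgeR, and DESeq2 called 8 (9.27% of all genes), 0 at adjusted p (0.136% of all genes). That count was 4 (12.1%) without ERRα-/- saline replicate 3 (8.50% of all genes), 4 without ERRα-/- insulin replicate 1 (7.40%) and 3 (9.09%) without WT insulin replicate 1 (9.48%). These comparisons share groups, so their values are given side by side and were not correlated.

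In ERRα3SA liver, 1 of 31 members was called (3.23%), where 651 of 13339 genes were called (4.88%), and in ERRα3SA muscle 1 of 27 (3.70%), where 639 of 14081 were (4.54%). Neither passed at adjusted p < 0.05 with edgeR, where 2 members in liver and 1 in muscle had unadjusted p under 0.05, and DESeq2 gave 2 unadjusted in each and 0 adjusted (0.315% and 0.398% of all genes). The unadjusted counts of both tools here hold no fold limit and no share of all genes, so they are not read as a result about the members. With all samples neither share exceeded that of all genes. The liver count was 2 (6.45%) without WT liver replicate 3 (4.42% of all genes) and 3 (9.68%) without ERRα3SA liver replicate 4 (6.60%). The muscle count was 0 without WT muscle replicate 3 or 4 or ERRα3SA muscle replicate 2 or 3, 2 (7.41%) without WT muscle replicate 2 (3.12% of all genes) and 4 (14.8%) without ERRα3SA muscle replicate 1, where 2506 of 14363 genes were called (17.4%). The ERRα3SA effect in muscle minus that in liver (tissue interaction) was called for 1 of 32 members (3.12%), where 881 of 15688 genes were called (5.62%), with 0 at adjusted p < 0.05 and, in DESeq2, 3 unadjusted (6.50% of all genes) and 0 adjusted (0.172%). That count ran from 0 without WT muscle replicate 3 or ERRα3SA muscle replicate 4, over 2 without WT muscle replicate 1 or 2 and 3 without WT liver replicate 3, ERRα3SA liver replicate 2 or ERRα3SA muscle replicate 2 (4.87% to 5.80% of all genes for these 5), to 8 (25.0%) without ERRα3SA muscle replicate 1, where 2933 of 16019 genes were called (18.3%). Between WT muscle and WT liver, 19 of 32 members were called, 7 higher and 12 lower in muscle (59.4%), where 8645 of 14886 genes were called (58.1%).

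**Figure D1:**
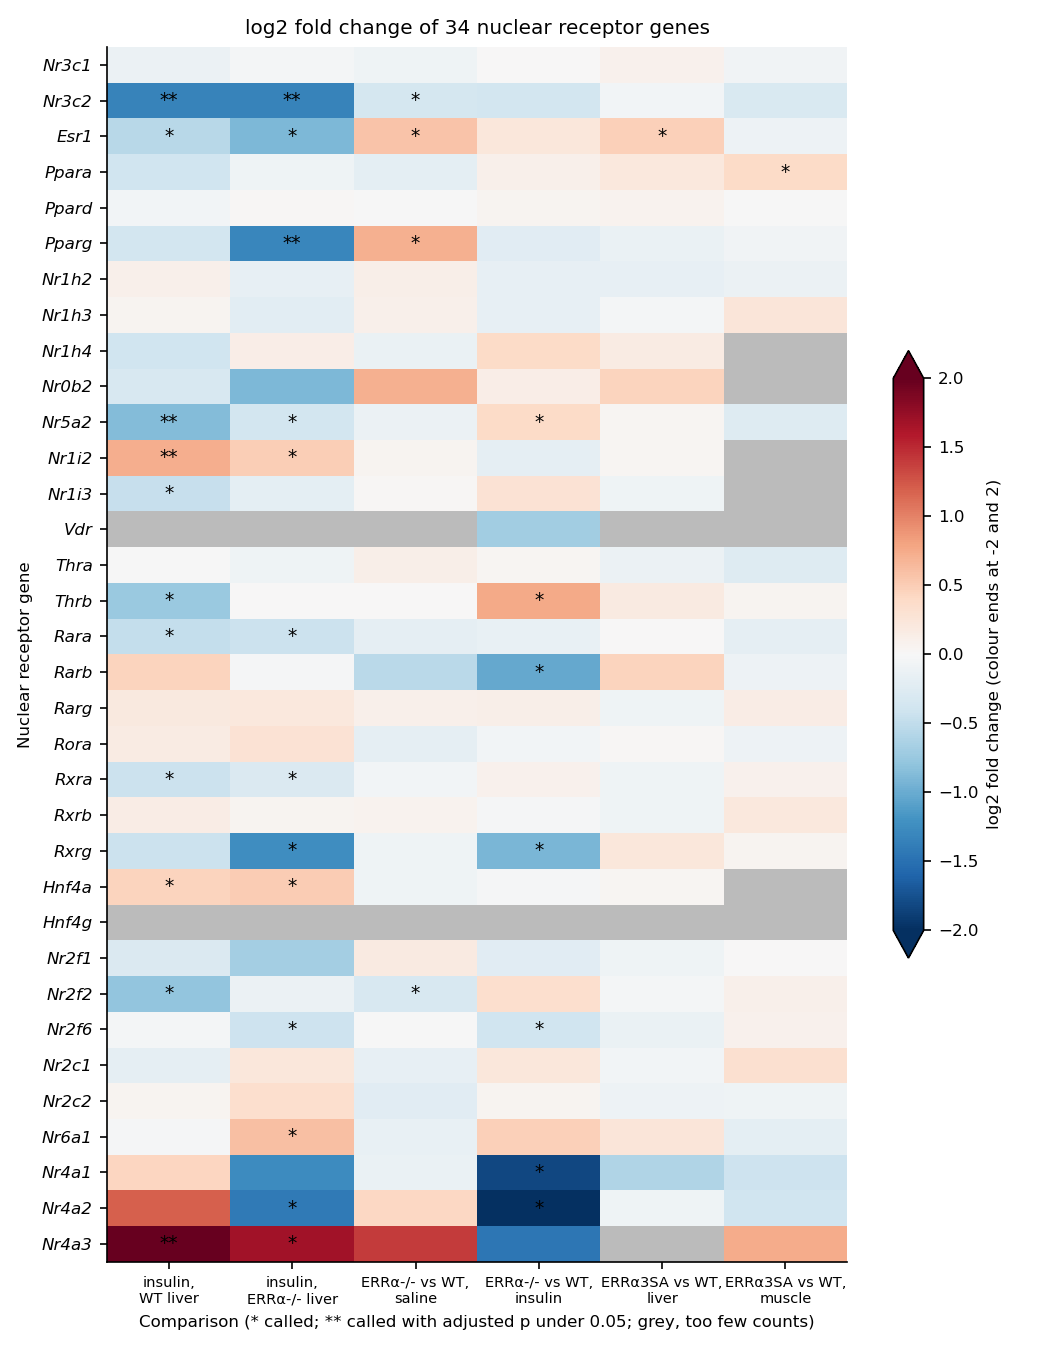
Heat map of log2 fold changes of the 34 genes (rows) in 6 comparisons (columns), with * for called members, ** for adjusted p < 0.05 and grey for too few counts. The insulin columns hold 11 and 13 called members (17.2% of all genes in each), the genotype columns 4 and 7 (11.3% and 9.99%) and the ERRα3SA columns 1 each (4.88% and 4.54%).

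Per kilobase of exon, Hnf4a was the most abundant member in every liver group, with group means of 202 CPM per kilobase in WT saline, 273 in WT insulin, 189 in ERRα-/- saline and 271 in ERRα-/- insulin livers. Rxra, the main RXR of hepatocytes, was second in each, at 141, 105, 136 and 112 on the same scale. In the littermate experiment Hnf4a stood at 129 in WT and 131 in ERRα3SA livers, and Rxra at 91.4 and 85.3. In WT muscle the order was Nr4a1 (40.7 CPM per kilobase), Rxra (31.6), Rxrg (29.0), Thra (15.99) and Nr3c1 (15.7). In ERRα3SA muscle Rxra led at 33.2, before Nr4a1 at 30.6 and Rxrg at 29.8. The count tables of the insulin and mutant experiments were made separately, and levels between them were not tested. Fewer than 10 counts in every sample of the group were seen for Hnf4g in WT insulin and ERRα-/- insulin livers, for Vdr and Hnf4g in ERRα-/- saline and WT littermate livers, and for Nr4a3, Vdr and Hnf4g in ERRα3SA livers. In WT muscle this held for 7 members, Nr0b2, Nr1h4, Nr1i2, Nr1i3, Vdr, Hnf4a and Hnf4g, and in ERRα3SA muscle for 5. No member fell below this mark in WT saline livers. The strand setting of the counting was not stated, so reads of genes on the opposite strand cannot be told apart where exons overlap: the overlap covers 74.9% of the exon bases of Nr1i3 (with Tomm40l), 54.4% of Nr2f6 (Ocel1), 38.4% of Rarb (Top2b and Gm48162) and 31.2% of Nr2c2.

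**Figure D2:**
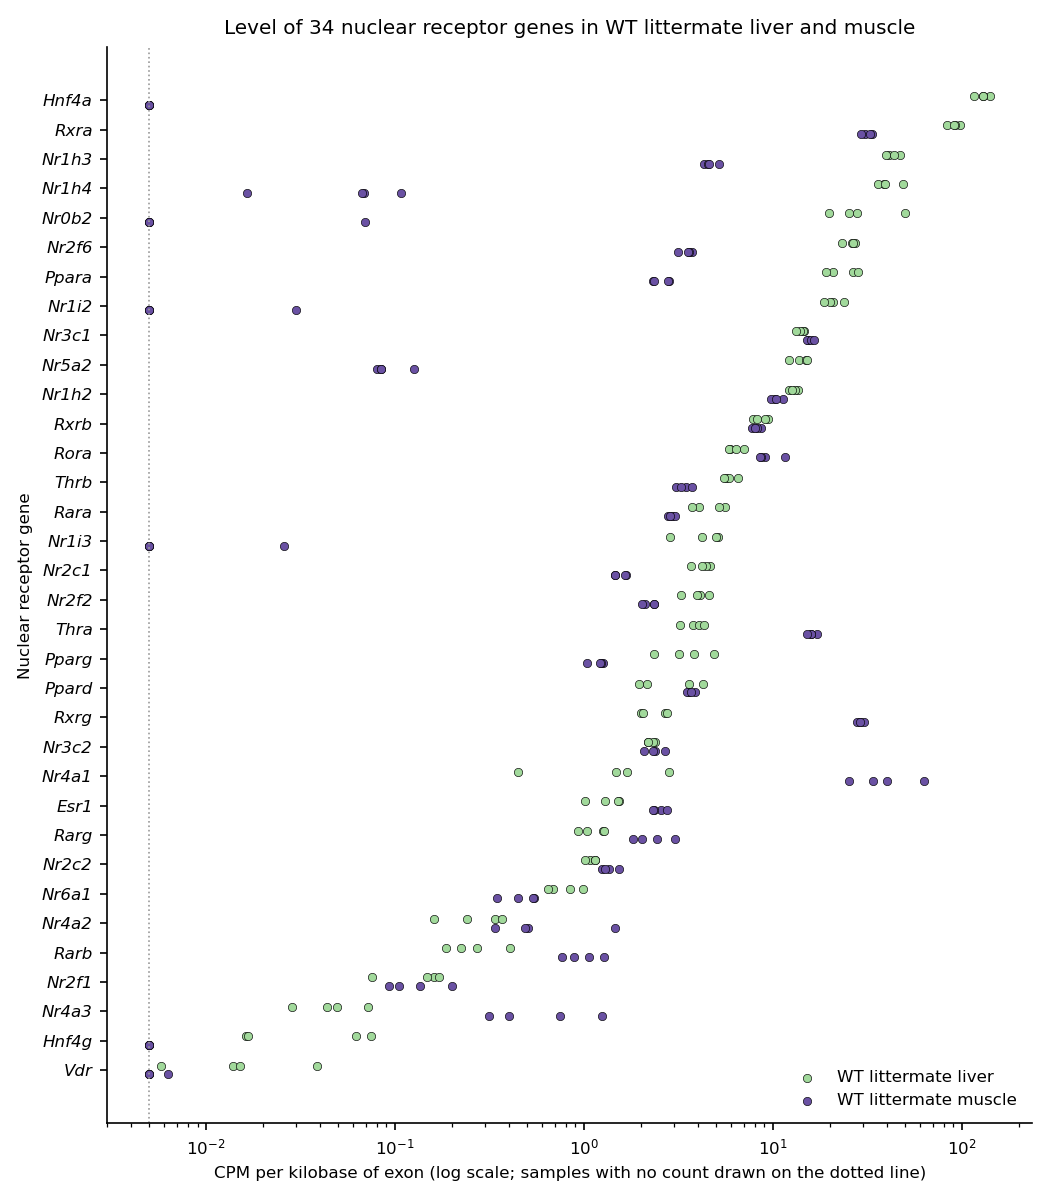
CPM per kilobase (log axis) of the 34 genes in each WT littermate liver (green) and muscle (purple), with samples without counts on the dotted line. Hnf4a averaged 129 in liver and had no count in muscle, and Nr4a1 averaged 40.7 in muscle against 1.60 in liver.

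Among the steroid receptors, Nr3c2, which encodes the mineralocorticoid receptor, stood at 19.6, 22.5, 22.1 and 21.98 CPM in WT saline and 10.9, 8.28, 7.84 and 7.22 in WT insulin livers. In ERRα-/- livers it stood at 15.9, 16.8, 15.8 and 18.8 after saline and 7.29, 6.20 and 6.60 after insulin. Each insulin liver was below each saline liver of its genotype, and each ERRα-/- saline liver was below each WT saline liver. Nr3c2 fell with insulin in WT liver (log2FC -1.33 ± 0.16, adjusted p = 0.00265) and in ERRα-/- liver (log2FC -1.33 ± 0.14, adjusted p = 0.00328), with an interaction of 0.00 ± 0.18, adjusted p = 0.999. It was lower in ERRα-/- than in WT livers after saline (log2FC -0.35 ± 0.10, adjusted p = 0.233), and after insulin the value was -0.37 (adjusted p = 0.578) with groups that overlapped, but called with all 4 groups in one fit (-0.36). All 3 calls held in every alternative fit and with any 1 liver left out. The 300 bases from 250 before to 49 after the RefSeq start site of Nr3c2 (GRCm38.p6, chromosome 8, 76902080 to 76902379, plus strand) are shown because this was the only member with adjusted p < 0.05 for insulin in both genotypes with edgeR on the groups of each comparison, and capitals would mark the receptor core site AGGTCA on either strand.
Nr3c2: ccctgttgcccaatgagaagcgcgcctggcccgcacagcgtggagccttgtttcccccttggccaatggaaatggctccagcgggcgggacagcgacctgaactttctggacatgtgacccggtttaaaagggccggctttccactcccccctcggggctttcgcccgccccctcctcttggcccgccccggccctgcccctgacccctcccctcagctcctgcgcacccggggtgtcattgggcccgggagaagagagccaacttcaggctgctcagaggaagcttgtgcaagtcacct
The window holds 0 matches, where 16.3% of 32851 promoter windows hold at least 1, and such a match describes letters, with no binding measured.

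Esr1, the gene of the estrogen receptor ERα that binds estradiol, stood at 26.7, 36.2, 25.9 and 21.1 CPM in WT saline and 27.9, 19.0, 13.8 and 13.9 in WT insulin livers. In ERRα-/- livers the values were 44.2, 25.9, 53.1 and 39.9 after saline and 20.1, 19.1 and 26.5 after insulin. WT insulin replicate 1 reached into the saline range, and the highest ERRα-/- insulin liver was just above the lowest ERRα-/- saline liver, so the groups overlapped in both genotypes. Esr1 fell with insulin in WT liver (log2FC -0.56 ± 0.24, adjusted p = 0.254) and in ERRα-/- liver (log2FC -0.90 ± 0.22, adjusted p = 0.0579), with an interaction of -0.34 ± 0.35, adjusted p = 0.807. In WT liver the Esr1 call was lost without WT saline replicate 1, 2 or 3 or WT insulin replicate 2, 3 or 4 (log2FC -0.59 to -0.40). It was higher in ERRα-/- than in WT livers after saline (log2FC 0.57 ± 0.21, adjusted p = 0.315), a call that was lost without ERRα-/- saline replicate 3 or WT saline replicate 4 (log2FC 0.42 to 0.46). After insulin the genotype value was 0.22 (adjusted p = 0.819), but called without WT insulin replicate 1 (0.48). Nr3c1, the gene of the glucocorticoid receptor, ranged from 76.2 to 103 CPM over the livers and was not called with insulin in WT (-0.12, adjusted p = 0.668) or ERRα-/- liver (-0.03, adjusted p = 0.903).

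Targets of the glucocorticoid receptor were listed as the readout of Nr3c1, with log2FC of up to 3 called genes and the list's median, as for each list that follows. The median of all genes was 0.00 with insulin in WT and -0.02 in ERRα-/- liver, 0.00 between genotypes after saline and -0.02 after insulin, -0.02 for the interaction, 0.00 and 0.02 in ERRα3SA liver and muscle and 0.00 for the tissue interaction. Lists are compared as ERRα-/- against WT, ERRα3SA against WT and WT muscle against WT liver. GR targets tested with insulin in WT liver were 5 higher and 5 not called (Mt2 1.65, Zbtb16 1.38 and Fkbp5 0.90, median 0.70). The same GR targets were 3 higher and 7 not called (Fkbp5 1.35, Tat 0.73 and Tsc22d3 0.45, median 0.08) in ERRα-/- liver. After saline, GR targets were 3 higher and 7 not called (Mt1 1.58, Sgk1 1.11 and Tat 0.59, median 0.41) in ERRα-/- liver. Fkbp5 encodes a chaperone partner of the receptor, Tat an amino acid catabolic enzyme and Mt1 and Mt2 metallothioneins, which also answer to metals. After insulin, GR targets were 1 higher and 9 not called (Fkbp5 0.40, median 0.12) in ERRα-/- liver. The interaction put GR targets at 1 lower and 9 not called (Sgk1 -1.36, median -0.22). ERRα3SA livers had GR targets at 3 higher and 6 not called (Mt1 2.02, Zbtb16 0.77 and Fkbp5 0.61, median 0.14). Sgk1 encodes a kinase that is induced by glucocorticoids, by mineralocorticoids and by insulin signalling. ERRα3SA muscles had GR targets at 1 higher and 7 not called (Mt1 2.32, median 0.15). WT muscle had GR targets at 5 higher, 1 lower and 3 not called (Tat, Sgk1 and Zbtb16 among those called). None of the GR targets was called for the tissue interaction (9 tested, median -0.24).

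**Figure D3:**
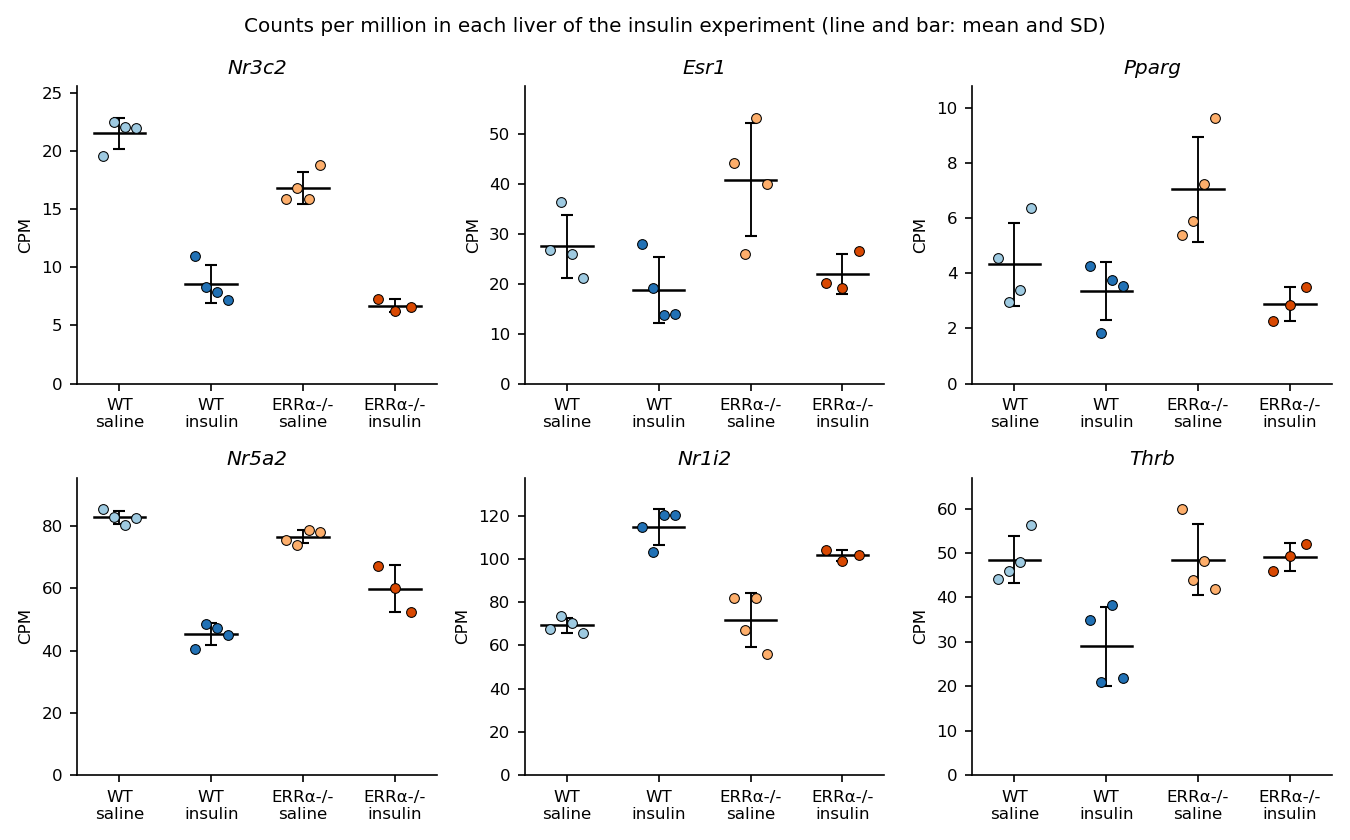
CPM of Nr3c2, Esr1, Pparg, Nr5a2, Nr1i2 and Thrb in each liver of the 4 groups of the insulin experiment (points), with mean and standard deviation. Nr3c2 lies at 15.8 to 22.5 in all saline livers and at 6.20 to 10.9 in all insulin livers, and Thrb falls below 40 only in WT insulin livers.

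The PPARs are fatty acid receptors, with Pparg known best for adipocytes, Ppara for hepatic fat oxidation and Ppard for many tissues including muscle. Pparg stood at 4.57, 2.97, 3.41 and 6.37 CPM in WT saline and 4.28, 1.84, 3.75 and 3.56 in WT insulin livers, and at 5.38, 5.92, 7.26 and 9.65 in ERRα-/- saline and 2.26, 2.85 and 3.502 in ERRα-/- insulin livers. All ERRα-/- insulin livers were below all ERRα-/- saline livers, and the WT groups overlapped. Pparg fell with insulin in ERRα-/- liver (log2FC -1.30 ± 0.26, adjusted p = 0.0268), whereas the value in WT liver was -0.37 (adjusted p = 0.607), and the interaction was -0.93 ± 0.43, adjusted p = 0.557. The interaction was not called for Pparg without ERRα-/- saline replicate 3 or 4, ERRα-/- insulin replicate 1 or 2, WT saline replicate 2 or 3 or WT insulin replicate 1, 3 or 4 (log2FC -0.93 to -0.74). With 1 liver left out, adjusted p for Pparg in ERRα-/- liver ran from 0.0256 to 0.126. Pparg was higher in ERRα-/- than in WT livers after saline (log2FC 0.71 ± 0.27, adjusted p = 0.320), with overlapping groups. That Pparg call was lost without ERRα-/- saline replicate 4 or WT saline replicate 2 or 3 (log2FC 0.52 to 0.60). After insulin the genotype value was -0.23 (adjusted p = 0.863). Ppara ranged from 85.0 to 258 CPM in WT insulin livers and was not called with insulin in WT (-0.39, adjusted p = 0.513) or ERRα-/- liver (-0.08, adjusted p = 0.903). In WT liver Ppara was called without WT insulin replicate 3 (-0.70). Adipocyte markers summed to 1.76, 1.75, 0.391 and 0.974 CPM in ERRα-/- saline and 5.54, 0.686 and 0.489 in ERRα-/- insulin livers, with replicate 1 highest in the latter, and their part in the Pparg values was not tested.

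PPARα and PPARδ targets tested with insulin in WT liver were 2 higher and 14 not called (Pdk4 2.54 and Angptl4 0.88, median 0.09). The same PPARα and PPARδ targets were 3 higher, 3 lower and 10 not called (Pdk4 1.42, Fgf21 -1.30 and Plin2 -1.11, median -0.10) in ERRα-/- liver. After saline, PPARα and PPARδ targets were 4 higher, 1 lower and 11 not called (Fgf21 1.56, Pdk4 0.73 and Ehhadh -0.66, median 0.12) in ERRα-/- liver. Pdk4 encodes a kinase that closes pyruvate dehydrogenase, Fgf21 a fasting hormone and Plin2 a lipid droplet coat protein. After insulin, PPARα and PPARδ targets were 1 higher, 1 lower and 14 not called (Plin2 -0.51 and Cyp4a10 0.42, median -0.11) in ERRα-/- liver. The interaction put PPARα and PPARδ targets at 1 lower and 15 not called (Plin2 -1.09, median -0.22). ERRα3SA livers had PPARα and PPARδ targets at 1 higher and 15 not called (Pdk4 0.87, median 0.30). Angptl4 encodes an inhibitor of lipoprotein lipase, and Ehhadh a peroxisomal enzyme of fat oxidation. ERRα3SA muscles had PPARα and PPARδ targets at 1 higher and 11 not called (Angptl4 1.56, median 0.25). WT muscle had PPARα and PPARδ targets at 4 higher, 13 lower and 1 not called (Fabp1, Ucp3 and Creb3l3 among those called). None of the PPARα and PPARδ targets was called for the tissue interaction (18 tested, median -0.23). PPARγ targets tested with insulin in WT liver were 3 higher and 1 not called (Plin4 1.91, Cidec 1.54 and Fabp4 0.93, median 1.26). The same PPARγ targets were 1 higher and 3 not called (Plin4 0.91, median 0.62) in ERRα-/- liver. After saline, PPARγ targets were 1 higher and 3 not called (Plin4 0.90, median 0.79) in ERRα-/- liver. Plin4 and Cidec encode lipid droplet proteins and Fabp4 a fatty acid carrier, all abundant in adipocytes. The interaction put PPARγ targets at 1 lower and 4 not called (Plin4 -0.99, median -0.99). WT muscle had PPARγ targets at 4 higher (Plin4, Fabp4 and Cidea among those called). None of the PPARγ targets was called between genotypes after insulin (4 tested, median -0.21), in ERRα3SA liver (4 tested, median 0.22), in ERRα3SA muscle (4 tested, median 0.23) or for the tissue interaction (5 tested, median -0.02).

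Receptors of sterol and bile acid metabolism came next. Nr5a2, the gene of LRH-1, which drives bile acid and cholesterol transport genes, stood at 85.4, 83.0, 80.4 and 82.6 CPM in WT saline and 40.6, 48.6, 47.4 and 45.1 in WT insulin livers. In ERRα-/- livers it stood at 75.6, 74.0, 78.6 and 78.2 after saline and 67.3, 60.1 and 52.3 after insulin. No insulin liver reached the saline range of its genotype, and the ERRα-/- insulin livers all lay above the WT insulin livers. Nr5a2 fell with insulin in WT liver (log2FC -0.86 ± 0.11, adjusted p = 0.00271) and in ERRα-/- liver (log2FC -0.36 ± 0.11, adjusted p = 0.102), and the interaction was 0.51 ± 0.14, adjusted p = 0.422. It was higher in ERRα-/- than in WT livers after insulin (log2FC 0.39 ± 0.13, adjusted p = 0.342), a call lost without ERRα-/- insulin replicate 1 (log2FC 0.30). After saline the genotype value was -0.11 (adjusted p = 0.645). The insulin and interaction calls held in every alternative and with any 1 liver left out. RefSeq places 2 start sites of Nr5a2 whose 300-base windows are shown because the interaction of this gene had the smallest p of all members (GRCm38.p6, chromosome 1, 136960399 to 136960698, minus strand for the first and chromosome 1, 136953581 to 136953880, minus strand for the second), with capitals for AGGTCA on either strand.
Nr5a2 first window: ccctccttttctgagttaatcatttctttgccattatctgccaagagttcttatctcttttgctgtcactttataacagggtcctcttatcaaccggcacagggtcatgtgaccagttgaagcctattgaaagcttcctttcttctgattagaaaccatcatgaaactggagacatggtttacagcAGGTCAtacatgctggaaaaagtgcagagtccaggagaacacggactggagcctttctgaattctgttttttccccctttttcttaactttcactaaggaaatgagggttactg
Nr5a2 second window: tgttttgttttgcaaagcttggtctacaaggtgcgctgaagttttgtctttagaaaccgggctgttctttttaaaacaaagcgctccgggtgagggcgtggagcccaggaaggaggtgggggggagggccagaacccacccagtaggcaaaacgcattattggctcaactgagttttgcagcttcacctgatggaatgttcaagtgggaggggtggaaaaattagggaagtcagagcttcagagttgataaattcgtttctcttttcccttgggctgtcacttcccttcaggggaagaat
The first window holds 1 match, with its first base at -64 on the plus strand of the gene, and the second holds 0. The core site was found in 10 of 47 member windows, of 9 members, against 16.3% of all windows, and the longer ERR element TNAAGGTCA in 0 of 47, against 1.28%.

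Nr1h3 and Nr1h2 encode the oxysterol receptors LXRα and LXRβ, Nr1h4 the bile acid receptor FXR and Nr0b2 its target SHP, a repressor without a DNA-binding domain. None of them was called with insulin in WT liver, where Nr1h4 had -0.40 (adjusted p = 0.338) with 41.3, 82.7, 80.9 and 86.5 CPM after insulin against 95.0, 98.1, 102 and 89.0 after saline. WT insulin replicate 1 was the lowest of these livers. Nr0b2 varied most, from 3.34 to 41.2 CPM within the ERRα-/- saline group, and its insulin value there was -0.91 (adjusted p = 0.519). Nr0b2 was called without WT insulin replicate 2 (-0.55) with insulin in WT liver, and without ERRα-/- saline replicate 4 both with insulin in ERRα-/- liver (-1.26) and between genotypes after saline (1.07). The Nr1h4 interaction was called without ERRα-/- saline replicate 2 (0.67). LXR targets tested with insulin in WT liver were 3 lower and 5 not called (Abcg8 -0.66, Abcg5 -0.42 and Lpcat3 -0.39, median -0.19). The same LXR targets were 1 lower and 7 not called (Srebf1 -0.77, median 0.02) in ERRα-/- liver. After saline, LXR targets were 2 lower and 6 not called (Abcg8 -0.45 and Abcg5 -0.40, median -0.31) in ERRα-/- liver. Abcg5 and Abcg8 together encode the canalicular sterol exporter, Srebf1 the lipogenic factor SREBP-1 and Lpcat3 a phospholipid acyltransferase. After insulin, LXR targets were 1 lower and 7 not called (Srebf1 -1.120, median -0.09) in ERRα-/- liver. The interaction put LXR targets at 1 higher and 7 not called (Lpcat3 0.40, median 0.24). ERRα3SA muscles had LXR targets at 1 higher, 1 lower and 4 not called (Srebf1 -0.66 and Abcg1 0.61, median -0.08). WT muscle had LXR targets at 1 higher and 7 lower (Abcg5, Abcg8 and Abca1 among those called). None of the LXR targets was called in ERRα3SA liver (8 tested, median -0.05) or for the tissue interaction (8 tested, median -0.25).

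Bile acid genes under FXR, SHP or LRH-1 tested with insulin in WT liver were 1 lower and 8 not called (Abcb11 -0.31, median -0.05). The same bile acid genes were 2 higher, 1 lower and 6 not called (Cyp7b1 1.71, Cyp27a1 0.38 and Slc10a1 -0.35, median 0.20) in ERRα-/- liver. After saline, bile acid genes were 1 lower and 8 not called (Cyp7b1 -1.23, median -0.01) in ERRα-/- liver. Abcb11 encodes the bile salt exporter, Cyp7b1 an oxysterol hydroxylase and Slc10a1 the basolateral bile acid importer. After insulin, bile acid genes were 1 higher and 8 not called (Cyp8b1 0.32, median 0.15) in ERRα-/- liver. The interaction put bile acid genes at 1 higher and 8 not called (Cyp7b1 1.54, median 0.24). The tissue interaction put bile acid genes at 1 lower and 8 not called (Abcb11 called, median -0.11). Cyp8b1 encodes the enzyme that makes cholic acid. WT muscle had bile acid genes at 8 lower and 1 not called (Abcb11, Slc27a5 and Cyp7a1 among those called). None of the bile acid genes was called in ERRα3SA liver (9 tested, median 0.01) or in ERRα3SA muscle (3 tested, median -0.29).

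Among the xenobiotic receptors, Nr1i2, the gene of PXR, stood at 67.6, 73.4, 70.4 and 65.6 CPM in WT saline and 115, 103, 121 and 121 in WT insulin livers, and at 81.9, 67.4, 81.9 and 55.8 in ERRα-/- saline and 104, 99.3 and 102 in ERRα-/- insulin livers. Each insulin liver was above each saline liver of its genotype. Nr1i2 rose with insulin in WT liver (log2FC 0.73 ± 0.11, adjusted p = 0.00577) and in ERRα-/- liver (log2FC 0.50 ± 0.14, adjusted p = 0.0858), with an interaction of -0.23 ± 0.17, adjusted p = 0.716, and both calls held in all alternatives and with any 1 liver left out. The Nr1i2 interaction was called without ERRα-/- saline replicate 4 (-0.33). Nr1i3, the gene of CAR, fell with insulin in WT liver (log2FC -0.47 ± 0.18, adjusted p = 0.215) from a group mean of 56.2 to 40.6 CPM, in groups that overlapped. In ERRα-/- liver its value was -0.19 (adjusted p = 0.741), and the interaction was 0.28 ± 0.32, adjusted p = 0.827. Nr1i3 in ERRα-/- liver was called without ERRα-/- saline replicate 3 (-0.39), and between genotypes after insulin it was called without WT insulin replicate 3 (0.38). Nr1i3 was not called without WT saline replicate 3 or 4 or WT insulin replicate 2 or 4 (log2FC -0.43 to -0.34). Vdr, the gene of the vitamin D receptor, stayed at or under 0.831 CPM in every liver of the insulin experiment, and in ERRα-/- liver it was called without ERRα-/- insulin replicate 1 and with all 4 groups in one fit. CAR and PXR targets tested with insulin in WT liver were 1 higher, 2 lower and 6 not called (Cyp2b10 1.05, Alas1 -0.99 and Abcc2 -0.39, median -0.21). The same CAR and PXR targets were 2 higher, 1 lower and 6 not called (Alas1 -0.91, Por 0.53 and Abcc2 0.45, median 0.33) in ERRα-/- liver. After saline, CAR and PXR targets were 1 higher and 8 not called (Cyp2b10 1.33, median 0.13) in ERRα-/- liver. Cyp2b10 encodes a drug-metabolising cytochrome P450, Alas1 the first enzyme of heme synthesis, Por the reductase of the P450s and Abcc2 and Abcc3 conjugate exporters. After insulin, CAR and PXR targets were 5 higher and 4 not called (Cyp2b10 1.35, Abcc3 0.76 and Por 0.58, median 0.41) in ERRα-/- liver. The interaction put CAR and PXR targets at 2 higher and 7 not called (Abcc2 0.84 and Ugt1a1 0.51, median 0.11). WT muscle had CAR and PXR targets at 9 lower (Cyp2c29, Abcc2 and Cyp3a11 among those called). Ugt1a1 encodes the enzyme that conjugates bilirubin. None of the CAR and PXR targets was called in ERRα3SA liver (9 tested, median -0.16), in ERRα3SA muscle (3 tested, median 0.08) or for the tissue interaction (9 tested, median 0.07).

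Thrb encodes TRβ, the main thyroid hormone receptor of liver, and Thra encodes TRα, the main form of muscle and heart. Thrb stood at 44.0, 45.9, 47.98 and 56.2 CPM in WT saline and 34.8, 20.9, 38.3 and 21.8 in WT insulin livers, and at 59.8, 43.9, 48.3 and 42.0 in ERRα-/- saline and 45.9, 49.4 and 52.1 in ERRα-/- insulin livers. All WT insulin livers lay below all other livers of the experiment, with replicates 2 and 4 lowest. Thrb fell with insulin in WT liver (log2FC -0.74 ± 0.20, adjusted p = 0.0749), the value in ERRα-/- liver was 0.01 (adjusted p = 0.974), and the interaction was 0.76 ± 0.26, adjusted p = 0.488. After insulin it was higher in ERRα-/- than in WT livers (log2FC 0.75 ± 0.21, adjusted p = 0.255), and after saline the value was 0.00 (adjusted p = 0.999). The 3 Thrb calls held in every alternative and with any 1 liver left out. Thra was not called in any liver comparison of genotype or insulin, with -0.01 in WT and -0.09 in ERRα-/- livers with insulin. Thyroid hormone targets tested with insulin in WT liver were 2 higher and 3 not called (Thrsp 1.47 and Hr 0.86, median 0.21). The same thyroid hormone targets were 1 higher and 4 not called (Thrsp 0.67, median 0.04) in ERRα-/- liver. After insulin, thyroid hormone targets were 2 lower and 3 not called (Thrsp -0.96 and Gpd2 -0.46, median -0.33) in ERRα-/- liver. Thrsp encodes Spot 14, a protein tied to lipid synthesis, and Hr encodes the corepressor hairless. ERRα3SA livers had thyroid hormone targets at 1 higher and 4 not called (Gpd2 0.30, median 0.30). The tissue interaction put thyroid hormone targets at 1 lower and 4 not called (Gpd2 called, median -0.50). WT muscle had thyroid hormone targets at 2 higher, 2 lower and 1 not called (Dio1, Hr and Thrsp among those called). None of the thyroid hormone targets was called between genotypes after saline (5 tested, median 0.05), for the interaction (5 tested, median -0.51) or in ERRα3SA muscle (4 tested, median -0.22).

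The retinoic acid receptors bind retinoids as partners of RXRs. Rara, the gene of RARα, fell with insulin in WT liver (log2FC -0.48 ± 0.17, adjusted p = 0.182) and in ERRα-/- liver (log2FC -0.43 ± 0.14, adjusted p = 0.139), from group means of 16.8 to 12.1 and of 14.8 to 11.0 CPM, with an interaction of 0.05 ± 0.23, adjusted p = 0.964. In WT liver the Rara call was lost without WT saline replicate 1 or 4 or WT insulin replicate 4 (log2FC -0.43 to -0.41). In ERRα-/- liver it was lost without ERRα-/- insulin replicate 2 (log2FC -0.32). Between genotypes after saline Rara was called without WT saline replicate 3 (-0.30). Rarb, the gene of RARβ, which retinoic acid itself induces, stood at 1.97, 5.40, 3.42 and 3.85 CPM in WT insulin and 2.34, 1.29 and 1.82 in ERRα-/- insulin livers, after 3.38, 2.70, 2.19 and 2.501 in WT saline and 1.92, 2.91, 1.07 and 1.51 in ERRα-/- saline livers. The highest ERRα-/- insulin liver was above the lowest WT insulin liver. Rarb was lower in ERRα-/- than in WT livers after insulin (log2FC -1.02 ± 0.38, adjusted p = 0.391), the value after saline was -0.54 (adjusted p = 0.541), and the interaction was -0.47 ± 0.50, adjusted p = 0.812. Rarb was called without ERRα-/- saline replicate 2 (-0.85) between genotypes after saline and with insulin in WT liver without WT insulin replicate 1 (0.65). Rarb was not called without ERRα-/- insulin replicate 2 or 4 or WT insulin replicate 2 (log2FC -1.003 to -0.76). Rarg and the orphan receptor gene Rora were not called in these comparisons, with insulin values for Rora of 0.17 in WT and 0.29 in ERRα-/- liver, the latter called without ERRα-/- saline replicate 3 (0.36).

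Retinoic acid targets tested with insulin in WT liver were 2 higher, 1 lower and 2 not called (Cyp26a1 1.55, Tgm2 0.80 and Dhrs3 -0.58, median 0.26). The same retinoic acid targets were 1 higher, 1 lower and 3 not called (Cyp26b1 1.03 and Dhrs3 -0.52, median -0.06) in ERRα-/- liver. After saline, retinoic acid targets were 1 higher and 4 not called (Tgm2 0.57, median 0.22) in ERRα-/- liver. Cyp26a1 and Cyp26b1 encode the P450s that clear retinoic acid, Dhrs3 a reductase that lowers its synthesis and Tgm2 a transglutaminase. After insulin, retinoic acid targets were 1 higher and 4 not called (Cyp26b1 0.88, median -0.29) in ERRα-/- liver. The interaction put retinoic acid targets at 2 lower and 3 not called (Cyp26a1 -1.35 and Tgm2 -0.86, median -0.50). ERRα3SA livers had retinoic acid targets at 1 higher and 4 not called (Cyp26b1 0.97, median 0.09). The tissue interaction put retinoic acid targets at 1 lower and 4 not called (Cyp26a1 called, median 0.04). WT muscle had retinoic acid targets at 3 lower and 2 not called (Cyp26a1 and Dhrs3 among those called). None of the retinoic acid targets was called in ERRα3SA muscle (4 tested, median 0.27).

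Of the RXRs, the shared partners, Rxra fell with insulin in WT liver (log2FC -0.43 ± 0.15, adjusted p = 0.175) and in ERRα-/- liver (log2FC -0.28 ± 0.11, adjusted p = 0.213), with an interaction of 0.15 ± 0.19, adjusted p = 0.854. The group means were 773 and 575 CPM in WT and 744 and 613 in ERRα-/- livers, and no insulin liver reached the saline range of its genotype. In ERRα-/- liver the Rxra call was lost without ERRα-/- saline replicate 1 or ERRα-/- insulin replicate 1, 2 or 4 (log2FC -0.30 to -0.25) and with all 4 groups in one fit (log2FC -0.28). Rxrg, a form known from muscle and brain, stood at 5.68, 3.03, 3.02 and 4.24 CPM in WT saline, 2.13, 2.35, 3.04 and 4.30 in WT insulin, 2.15, 2.98, 3.85 and 6.00 in ERRα-/- saline and 1.07, 1.81 and 1.87 in ERRα-/- insulin livers. The ERRα-/- insulin livers were below all other livers. Rxrg fell with insulin in ERRα-/- liver (log2FC -1.25 ± 0.38, adjusted p = 0.109), the value in WT liver was -0.43 (adjusted p = 0.504), and the interaction was -0.81 ± 0.50, adjusted p = 0.651. After insulin it was lower in ERRα-/- than in WT livers (log2FC -0.91 ± 0.36, adjusted p = 0.420), against -0.09 (adjusted p = 0.948) after saline. That Rxrg call was lost without ERRα-/- insulin replicate 1 or WT insulin replicate 3 or 4 (log2FC -0.89 to -0.67). Rxrb was not called, with 0.14 in WT and 0.06 in ERRα-/- livers.

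Hnf4a, which encodes the receptor that maintains hepatocyte identity, rose with insulin in WT liver (log2FC 0.44 ± 0.15, adjusted p = 0.152) and in ERRα-/- liver (log2FC 0.51 ± 0.18, adjusted p = 0.151), with an interaction of 0.08 ± 0.23, adjusted p = 0.946. Its group means were 973 and 1319.7 CPM in WT and 912 and 1307 in ERRα-/- livers, without overlap between saline and insulin, and both calls held in all alternatives. Nr2f2, the gene of COUP-TFII, which is found in hepatocytes, endothelium and stroma, stood at 48.6, 44.5, 51.5 and 57.9 CPM in WT saline and 34.7, 47.3, 37.0 and 42.2 in ERRα-/- saline livers, and at 18.1, 24.4, 42.9 and 32.1 in WT insulin and 42.0, 32.0 and 37.7 in ERRα-/- insulin livers. The WT insulin livers were all below the WT saline livers, and ERRα-/- saline replicate 2 lay within the WT saline range. Nr2f2 fell with insulin in WT liver (log2FC -0.78 ± 0.23, adjusted p = 0.0946), the value in ERRα-/- liver was -0.12 (adjusted p = 0.717), and the interaction was 0.67 ± 0.29, adjusted p = 0.546. After saline it was lower in ERRα-/- than in WT livers (log2FC -0.33 ± 0.12, adjusted p = 0.320), and after insulin the value was 0.33 (adjusted p = 0.703), but called without WT insulin replicate 3 (0.58). The saline difference of Nr2f2 was lost without ERRα-/- saline replicate 1 or 3 or WT saline replicate 4 (log2FC -0.29 to -0.26) and with all 4 groups in one fit (log2FC -0.33). Its interaction was lost without ERRα-/- saline replicate 1 or 3, ERRα-/- insulin replicate 1 or 4, WT saline replicate 4 or WT insulin replicate 1 or 2 (log2FC 0.49 to 0.66). Summed endothelial markers were 116, 203, 174 and 170.0 CPM in WT saline, 150.3, 116, 152 and 166 in WT insulin and 149, 147, 136 and 145 in ERRα-/- saline livers. Stellate cell or fibroblast markers summed to 154, 195, 165 and 166 CPM in WT saline, 173, 151, 188 and 168 in WT insulin and 168, 172, 183 and 181 in ERRα-/- saline livers. In ERRα-/- insulin livers the endothelial sums ran from 146 to 163 CPM and the stellate or fibroblast sums from 174 to 201. Single markers called with insulin in WT liver were Kdr -0.60 and Lrat -0.88. Kdr -0.43 and Col1a1 -0.74 were called between genotypes after saline and Lrat 0.82 for the interaction. The other markers of both lists were not called in these fits, and the part of these cells in the Nr2f2 values was not tested. In bulk tissue, fewer cells of a type and less RNA per cell cannot be told apart.

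Nr2f6, the gene of the COUP-TF relative EAR2, fell with insulin in ERRα-/- liver (log2FC -0.41 ± 0.16, adjusted p = 0.211), the value in WT liver was -0.04 (adjusted p = 0.932), and the interaction was -0.37 ± 0.25, adjusted p = 0.689. In ERRα-/- liver the Nr2f6 call was lost without ERRα-/- saline replicate 2 or 4 or ERRα-/- insulin replicate 1, 2 or 4 (log2FC -0.44 to -0.29). After insulin it was lower in ERRα-/- than in WT livers (log2FC -0.40 ± 0.18, adjusted p = 0.491), against -0.01 (adjusted p = 0.985) after saline. The genotype call after insulin was lost without ERRα-/- insulin replicate 1, 2 or 4 or WT insulin replicate 1 or 2 (log2FC -0.42 to -0.24), with RLE size factors (log2FC -0.39) and with all 4 groups in one fit (log2FC -0.38). Nr6a1, the gene of the germ cell nuclear factor, rose with insulin in ERRα-/- liver (log2FC 0.61 ± 0.18, adjusted p = 0.110), the value in WT liver was -0.02 (adjusted p = 0.977), and the interaction was 0.63 ± 0.27, adjusted p = 0.546. Its group means were 10.4 and 10.2 CPM in WT and 9.34 and 14.3 in ERRα-/- livers. The Nr6a1 rise was lost without ERRα-/- insulin replicate 1 (log2FC 0.46). Its interaction was lost without ERRα-/- saline replicate 1, ERRα-/- insulin replicate 1 or 2, WT saline replicate 1 or WT insulin replicate 1, 3 or 4 (log2FC 0.48 to 0.59). Between genotypes after insulin Nr6a1 was called without ERRα-/- insulin replicate 4 or WT insulin replicate 2, with no low-count filter and with all 4 groups in one fit (0.48 to 0.68). The testicular receptor genes Nr2c1 and Nr2c2 and the COUP-TFI gene Nr2f1 were not called with insulin or genotype, and Nr2f1 stayed at or under 0.880 CPM. Nr2c2 was called without ERRα-/- saline replicate 3 (0.48) in ERRα-/- liver, and the Nr2c1 interaction was called without WT insulin replicate 3 (0.50). HNF4A targets with insulin were 1 higher, 1 lower and 6 not called (Apoc3 -0.29, median 0.02) in ERRα-/- liver. The interaction put HNF4A targets at 1 lower and 7 not called (Apoc3 -0.50, median 0.14). WT muscle had HNF4A targets at 8 lower (Ttr, Apob and Apoa2 among those called). Apoc3 encodes an inhibitor of triglyceride clearance. None of the HNF4A targets was called with insulin in WT liver (8 tested, median -0.07), between genotypes after saline (8 tested, median 0.02), between genotypes after insulin (8 tested, median 0.01), in ERRα3SA liver (8 tested, median -0.02), in ERRα3SA muscle (1 tested, median -0.14) or for the tissue interaction (8 tested, median -0.60).

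The NR4A genes encode ligand-independent receptors and are immediate early genes that answer to cAMP, calcium and stress. Nr4a3 (NOR1) stood at 0, 0, 0.297 and 0.208 CPM in WT saline and 7.24, 0.961, 1.17 and 2.83 in WT insulin livers, and at 0.262, 0.267, 0.609 and 0.244 in ERRα-/- saline and 1.41, 1.29 and 0.679 in ERRα-/- insulin livers. Each insulin liver was above each saline liver of its genotype, and WT insulin replicate 1 was far above the rest. Nr4a3 rose with insulin in WT liver (log2FC 4.51 ± 0.99, adjusted p = 0.0343) and in ERRα-/- liver (log2FC 1.68 ± 0.56, adjusted p = 0.138), with an interaction of -2.83 ± 1.196, adjusted p = 0.543. Adjusted p for Nr4a3 in WT liver ran from 0.0313 to 0.102 with 1 liver left out. The log2FC was 5.31 without WT saline replicate 3 and 3.64 without WT insulin replicate 1, and the interaction was -3.63 without that saline liver. In ERRα-/- liver the Nr4a3 call was lost without ERRα-/- insulin replicate 1 (log2FC 1.49) and with all 4 groups in one fit (log2FC 1.69). The Nr4a3 interaction was not called without ERRα-/- saline replicate 3, ERRα-/- insulin replicate 4 or WT insulin replicate 1 (log2FC -2.56 to -1.95). Between genotypes after insulin Nr4a3 was called without WT insulin replicate 2 or 3, with DESeq2 and with no low-count filter (-1.74 to -1.44). Nr4a2 (NURR1) stood at 1.32, 0.275, 1.78 and 0.394 CPM in WT saline and 3.67, 0.904, 2.37 and 1.78 in WT insulin livers, and at 1.71, 1.116, 0.587 and 1.62 in ERRα-/- saline and 0.833, 0.412 and 0.163 in ERRα-/- insulin livers. All ERRα-/- insulin livers were below all WT insulin livers, and the saline groups overlapped. Nr4a2 was lower in ERRα-/- than in WT livers after insulin (log2FC -2.21 ± 0.63, adjusted p = 0.258), with 0.41 (adjusted p = 0.842) after saline and an interaction of -2.62 ± 0.92, adjusted p = 0.493.

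With insulin, Nr4a2 fell in ERRα-/- liver (log2FC -1.42 ± 0.62, adjusted p = 0.266), and the value in WT liver was 1.202 (adjusted p = 0.337), but called without WT saline replicate 3 or WT insulin replicate 2 and with DESeq2 (1.21 to 1.71). The Nr4a2 fall was lost without ERRα-/- saline replicate 1, 2 or 4 or ERRα-/- insulin replicate 2 or 4 (log2FC -1.46 to -1.01) and with all 4 groups in one fit (log2FC -1.41). Nr4a1 (NUR77), tied to hepatic glucose output, stood at 1.11, 1.65, 3.57 and 5.91 CPM in WT saline and 7.08, 1.30, 2.56 and 5.51 in WT insulin livers, and at 1.23, 2.45, 6.13 and 1.26 in ERRα-/- saline and 0.911, 1.92 and 0.679 in ERRα-/- insulin livers. Within WT the insulin and saline livers spanned a similar range, and WT insulin replicate 2 overlapped with the ERRα-/- insulin livers. The insulin value of Nr4a1 was 0.42 (adjusted p = 0.759) in WT and -1.25 (adjusted p = 0.316) in ERRα-/- liver, the latter called without ERRα-/- saline replicate 1 or 4 or ERRα-/- insulin replicate 2, with DESeq2 and with no low-count filter (-1.80 to -1.24). Nr4a1 was lower in ERRα-/- than in WT livers after insulin (log2FC -1.82 ± 0.59, adjusted p = 0.327), with -0.14 (adjusted p = 0.953) after saline and an interaction of -1.67 ± 0.92, adjusted p = 0.614, but called without ERRα-/- insulin replicate 2, WT saline replicate 4 or WT insulin replicate 2 and with DESeq2 (-2.22 to -1.67). The genotype calls of Nr4a1 and Nr4a2 after insulin and the Nr4a2 interaction held in every alternative and with any 1 liver left out. Without ERRα-/- insulin replicate 1, Nr4a2 was at -2.92 between genotypes after insulin, -2.12 with insulin in ERRα-/- liver and -3.32 for the interaction. WT insulin replicate 3 had a muscle fibre marker sum of 69.7 CPM, where the highest other liver of that experiment had 5.08, and its part in the NR4A values, which are high in muscle, was not tested. The start site windows of these 3 genes (GRCm38.p6, chromosome 15, 101266596 to 101266895, plus strand for Nr4a1, chromosome 2, 57123954 to 57124253, minus strand for Nr4a2 and chromosome 4, 48045055 to 48045354, plus strand for Nr4a3) are shown because they are known for cAMP response elements, with capitals for TGACG on either strand, which reads CGTCA on the other.
Nr4a1: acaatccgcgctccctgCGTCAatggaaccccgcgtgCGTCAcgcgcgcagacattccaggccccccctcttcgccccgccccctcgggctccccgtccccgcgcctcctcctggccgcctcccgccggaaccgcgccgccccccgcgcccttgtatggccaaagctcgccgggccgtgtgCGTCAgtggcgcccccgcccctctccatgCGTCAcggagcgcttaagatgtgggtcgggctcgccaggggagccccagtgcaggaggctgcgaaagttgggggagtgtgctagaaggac
Nr4a2: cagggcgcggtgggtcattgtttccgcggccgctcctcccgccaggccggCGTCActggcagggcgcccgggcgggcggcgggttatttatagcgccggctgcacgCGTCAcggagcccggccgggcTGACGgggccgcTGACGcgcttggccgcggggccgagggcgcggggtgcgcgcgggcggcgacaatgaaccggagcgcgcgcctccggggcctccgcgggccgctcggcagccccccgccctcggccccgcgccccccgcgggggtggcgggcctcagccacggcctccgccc
Nr4a3: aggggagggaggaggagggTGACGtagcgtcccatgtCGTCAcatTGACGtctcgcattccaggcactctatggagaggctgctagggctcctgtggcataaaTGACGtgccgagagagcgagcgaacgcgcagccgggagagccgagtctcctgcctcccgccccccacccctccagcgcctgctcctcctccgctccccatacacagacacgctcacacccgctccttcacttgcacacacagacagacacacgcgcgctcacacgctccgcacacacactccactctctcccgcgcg
Each window holds 4 matches. The core site was found in 14 of 47 member windows, of 12 members, against 20.8% of all windows, and the full element TGACGTCA in 1, that of Nr6a1, against 1.79%.

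**Figure D4:**
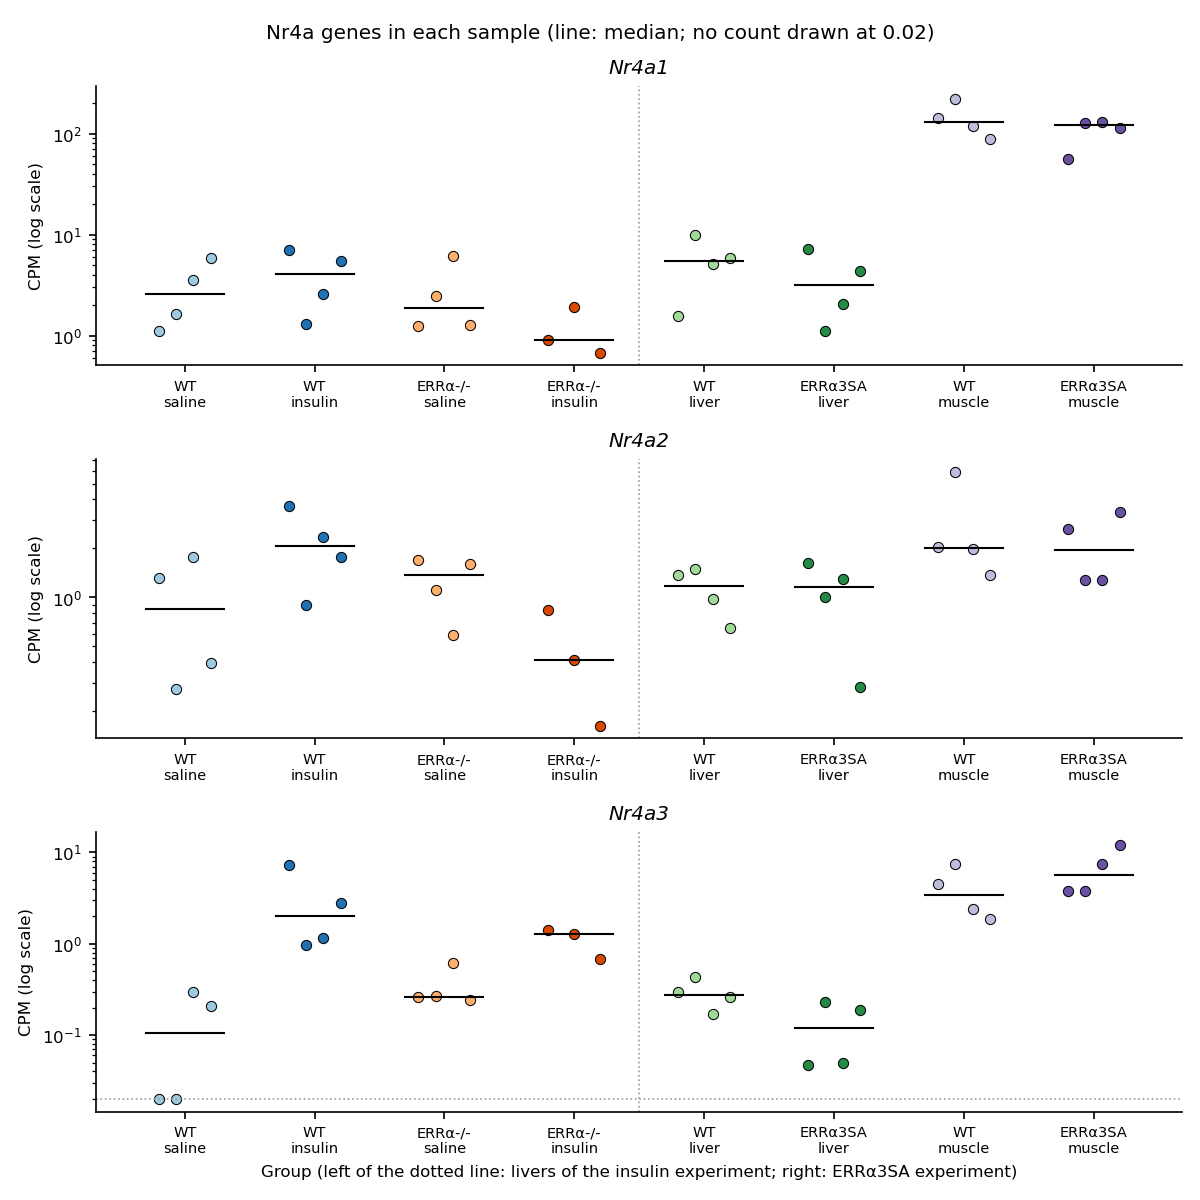
CPM (log axis) of Nr4a1, Nr4a2 and Nr4a3 in each sample of the 8 groups, with the group median as a line and samples without counts drawn at 0.02. Nr4a3 is at 0 to 0.297 in WT saline and 0.961 to 7.24 in WT insulin livers, and Nr4a1 is at 56.6 to 222 in muscles.

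CREB-linked genes tested with insulin in WT liver were 2 higher and 5 not called (Fos 2.27 and Crem 0.97, median 0.23). The same CREB-linked genes were 1 higher and 6 not called (Crem 0.37, median -0.07) in ERRα-/- liver. After saline, CREB-linked genes were 4 higher and 3 not called (Fos 2.31, Junb 1.73 and Egr1 1.72, median 0.59) in ERRα-/- liver. Fos, Junb and Egr1 encode immediate early transcription factors, listed because they are known to be induced together with the NR4A genes. Crem encodes a cAMP-responsive activator and repressor. After insulin, CREB-linked genes were 2 higher and 6 not called (Egr1 2.34 and Junb 1.29, median -0.02) in ERRα-/- liver. Nr4a1 and Nr4a2 were lower in that comparison, and no NR4A gene was called between genotypes after saline. With insulin in WT liver, Nr4a3 rose along with Fos and Crem. The interaction put CREB-linked genes at 2 lower and 6 not called (Fos -2.80 and Crem -0.60, median -0.37). ERRα3SA livers had CREB-linked genes at 1 lower and 6 not called (Crem -0.37, median 0.31). The tissue interaction put CREB-linked genes at 1 higher and 7 not called (Crem called, median 0.52). WT muscle had CREB-linked genes at 3 higher, 2 lower and 3 not called (Fos, Fosb and Crem among those called). None of the CREB-linked genes was called in ERRα3SA muscle (8 tested, median 0.69).

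Proteins that bind the receptors were listed too. Coregulators tested with insulin in WT liver were 1 higher, 5 lower and 10 not called (Ncor1 -0.49 and Ncoa4 0.45, median -0.18). The same coregulators were 5 higher and 11 not called (Ncoa4 0.90, Med1 0.45 and Nrip1 0.35, median 0.16) in ERRα-/- liver. After saline, coregulators were 5 lower and 11 not called (Nrip1 -0.36 and Ncoa1 -0.33, median -0.16) in ERRα-/- liver. Ncor1 encodes the corepressor NCoR, Ncoa1 to Ncoa4 encode coactivators and Nrip1 encodes the corepressor RIP140. After insulin, coregulators were 2 higher and 14 not called (Crebbp 0.51 and Ncoa4 0.44, median 0.06) in ERRα-/- liver. The interaction put coregulators at 3 higher and 13 not called (Ncor1 0.56, Ncoa2 0.49 and Ncoa3 0.48, median 0.38). ERRα3SA muscles had coregulators at 1 higher, 2 lower and 13 not called (Nrip1 0.42, Crebbp -0.32 and Tbl1xr1 -0.31, median -0.03). Crebbp encodes an acetyltransferase, Tbl1xr1 an NCoR partner and Med1 a Mediator subunit. The tissue interaction put coregulators at 2 lower and 14 not called (Crebbp and Tbl1xr1 called, median -0.08). WT muscle had coregulators at 3 higher, 2 lower and 11 not called (Ncoa4 and Carm1 among those called). None of the coregulators was called in ERRα3SA liver (16 tested, median 0.05). Other nuclear receptors, the ERR and Nr1d genes among them, tested with insulin in WT liver were 1 higher, 1 lower and 5 not called (Esrra 0.67, median -0.11). After saline, other nuclear receptors were 3 lower and 4 not called (Esrra -5.21 and Nr1d2 -0.29, median -0.29) in ERRα-/- liver. After insulin, other nuclear receptors were 1 lower and 7 not called (Esrra -6.86, median 0.00) in ERRα-/- liver. Nr1d2 encodes the heme receptor REV-ERBβ. The interaction put other nuclear receptors at 1 lower and 7 not called (Esrra -1.65, median 0.03). WT muscle had other nuclear receptors at 6 higher and 1 not called (Esrrg and Esrrb among those called). None of the other nuclear receptors was called with insulin in ERRα-/- liver (7 tested, median 0.11), in ERRα3SA liver (7 tested, median -0.02), in ERRα3SA muscle (7 tested, median -0.07) or for the tissue interaction (7 tested, median -0.04).

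The tissues were compared within WT littermates, and the labels give no feeding state or collection time for single samples. Hnf4a stood at 680.5, 627, 622 and 559 CPM in livers and had no count in any muscle, so its level was at least 22014-fold higher in liver, with 3 counts over the muscle group as a floor. Nr0b2 stood at 28.6, 31.4, 56.4 and 22.4 CPM in livers and 0, 0.0788, 0 and 0 in muscles, where it had 2 counts in all. Nr1i2 stood at 53.4, 60.5, 51.5 and 47.8 and 0, 0, 0 and 0.0765, with 2 counts over the muscles. The 3 genes belong to hepatocytes, and no muscle value came near a liver value. Nr1i3 stood at 22.7, 18.5, 21.9 and 12.6 CPM in livers and 0, 0, 0.114 and 0 in muscles, with 3 counts over the muscles, so no fold is given for these last 3. All 4 were lower in muscle at adjusted p of 2.81e-14, 2.09e-10, 1.54e-14 and 4.19e-11, in that order.

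Further members were lower in muscle. Nr5a2, the LRH-1 gene, stood at 80.9, 88.8, 89.3 and 71.5 CPM in WT livers and 0.740, 0.473, 0.495 and 0.497 in WT muscles (log2FC -7.18 ± 0.13, adjusted p = 2.67e-15). Nr1h4, the FXR gene, stood at 112, 88.9, 82.6 and 90.8 CPM in WT livers and 0.247, 0.158, 0.0381 and 0.153 in WT muscles (log2FC -9.21 ± 0.19, adjusted p = 1.07e-14). Nr1h3, the LXRα gene, stood at 118, 104, 99.4 and 110.1 CPM in WT livers and 13.1, 10.9, 11.5 and 11.5 in WT muscles (log2FC -3.17 ± 0.08, adjusted p = 6.56e-14). For each of them every muscle was below every liver. Nr2f6, the EAR2 gene, stood at 78.4, 69.1, 81.3 and 79.4 CPM in WT livers and 11.1, 10.8, 9.36 and 10.6 in WT muscles (log2FC -2.85 ± 0.08, adjusted p = 2.05e-13). Ppara, which drives fat oxidation in both tissues, stood at 102, 109, 79.5 and 73.0 CPM in WT livers and 8.85, 10.8, 10.7 and 8.99 in WT muscles (log2FC -3.18 ± 0.13, adjusted p = 1.70e-11). Rxra, the common partner, stood at 537, 458, 502 and 499 CPM in WT livers and 182, 168, 179 and 160.2 in WT muscles (log2FC -1.51 ± 0.07, adjusted p = 8.95e-11). Again no muscle reached the liver range. Nr2c1, the gene of testicular receptor 2, stood at 21.4, 20.4, 17.1 and 19.5 CPM in WT livers and 6.70, 6.74, 7.73 and 7.61 in WT muscles (log2FC -1.42 ± 0.10, adjusted p = 5.60e-09). Pparg, the PPARγ gene, stood at 11.3, 14.5, 6.90 and 9.36 CPM in WT livers and 3.74, 3.62, 3.58 and 3.06 in WT muscles (log2FC -1.56 ± 0.20, adjusted p = 3.92e-06). Both kept muscle and liver samples apart.

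Members that were higher in muscle included partners and immediate early genes. Rxrg, the RXR known from muscle, stood at 6.17, 4.60, 6.34 and 4.70 CPM in WT livers and 66.4, 70.1, 64.2 and 66.1 in WT muscles (log2FC 3.63 ± 0.10, adjusted p = 1.76e-13). Thra, the TRα gene, stood at 17.4, 18.7, 19.9 and 14.8 CPM in WT livers and 78.6, 73.5, 73.1 and 70.0 in WT muscles (log2FC 2.08 ± 0.08, adjusted p = 1.40e-11). Nr4a1, the NUR77 gene, stood at 1.57, 9.83, 5.15 and 5.92 CPM in WT livers and 142, 222, 119 and 88.7 in WT muscles (log2FC 4.72 ± 0.39, adjusted p = 5.12e-08). Every muscle was above every liver for these genes. Nr4a3, the NOR1 gene, stood at 0.294, 0.433, 0.170 and 0.261 CPM in WT livers and 4.48, 7.44, 2.40 and 1.87 in WT muscles (log2FC 3.80 ± 0.48, adjusted p = 4.67e-06). Nr4a2, the NURR1 gene, stood at 1.37, 1.49, 0.979 and 0.653 CPM in WT livers and 2.04, 5.91, 1.98 and 1.38 in WT muscles (log2FC 1.33 ± 0.42, adjusted p = 0.00970). Nr4a2 overlapped between tissues, with WT muscle replicate 2 highest, and the call was lost without WT muscle replicate 2 (log2FC 0.69, adjusted p 0.0452). Rarb, the RARβ gene, stood at 1.44, 2.12, 0.979 and 1.18 CPM in WT livers and 5.61, 4.65, 4.03 and 6.69 in WT muscles (log2FC 1.89 ± 0.24, adjusted p = 3.78e-06). Rarg, the RARγ gene, stood at 5.39, 5.47, 3.96 and 4.44 CPM in WT livers and 12.9, 10.4, 8.60 and 7.76 in WT muscles (log2FC 1.06 ± 0.17, adjusted p = 3.73e-05). Rarb and Rarg had no overlap between the tissues, and the Rarg call needs a fold of 2 and was lost without WT littermate liver replicate 3 or WT muscle replicate 1 (log2FC 0.89 to 0.96, adjusted p 0.000136 to 0.000143).

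In ERRα3SA liver, Esr1 was the called member. It stood at 20.8, 13.9, 20.7 and 17.5 CPM in WT livers and 22.7, 21.1, 23.2 and 32.7 in ERRα3SA livers. Every ERRα3SA liver was above every WT liver, and ERRα3SA replicate 4 was highest. Esr1 was higher in ERRα3SA liver (log2FC 0.47 ± 0.17, adjusted p = 0.629), a call lost without WT littermate liver replicate 2 (log2FC 0.36). Its value was 0.30 without ERRα3SA liver replicate 4. In ERRα3SA liver, Nr6a1 was called without ERRα3SA liver replicate 4 (0.43), Rarb without WT littermate liver replicate 2 (0.70) and Nr0b2 without WT littermate liver replicate 3 (0.79). The same ERRα3SA replicate 4 had the lowest hepatocyte marker sum, 50302 CPM where the other ERRα3SA livers had 81106 to 96067, and its part in the Esr1 value was not tested. In muscle Esr1 stood at 35.1, 32.0, 37.5 and 31.5 in WT and 38.7, 32.9, 30.8 and 23.3 in ERRα3SA samples, with -0.10 (adjusted p = 1.00), and the difference between muscle and liver effects was -0.59 ± 0.25, adjusted p = 0.854. The tissue interaction of Esr1 was lost without WT littermate liver replicate 2, ERRα3SA liver replicate 4, WT muscle replicate 3 or ERRα3SA muscle replicate 4 (log2FC -0.51 to -0.40). Nr1h2 had -0.17 in liver (adjusted p = 0.629), below the fold of 1.2.

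In ERRα3SA muscle, Ppara was the called member. It stood at 8.85, 10.8, 10.7 and 8.99 CPM in WT muscles and 11.9, 12.0, 16.5 and 10.6 in ERRα3SA muscles. ERRα3SA replicate 3 was highest, and the lowest ERRα3SA muscle lay within the WT range. Ppara was higher in ERRα3SA muscle (log2FC 0.39 ± 0.17, adjusted p = 1.00), with a liver value of 0.21 (adjusted p = 0.793), but called without ERRα3SA liver replicate 4 (0.33), and a tissue interaction of 0.16 ± 0.25, adjusted p = 1.00. Ppara was not called without WT muscle replicate 1, 3 or 4 or ERRα3SA muscle replicate 2 or 3 (log2FC 0.25 to 0.43), with no low-count filter (log2FC 0.37) and with all 4 groups in one fit (log2FC 0.36). Vdr had 1, 0, 0 and 0 counts in WT and 8, 8, 4 and 21 in ERRα3SA muscles, and it was called without the filter on low counts (adjusted p = 0.415), also for the tissue interaction (adjusted p = 0.224). In ERRα3SA liver Vdr was called without this filter in the other direction (log2FC -2.63, adjusted p = 0.739), with fewer than 10 counts in every liver. Nr1h3 was called without WT muscle replicate 1 (0.30) and Nr4a3 without WT muscle replicate 2 (1.22) in ERRα3SA muscle. ERRα3SA muscle replicate 1 stood apart in several members: Rxrb was at 10.1, 49.2, 45.9 and 44.8 CPM in the ERRα3SA muscles, Nr1h2 at 9.35, 40.8, 40.5 and 38.0, Nr2f6 at 2.46, 13.3, 14.3 and 14.1 and Rarg at 3.23, 14.0, 14.1 and 12.3, with replicate 1 named first. That library had 19.3% of its counts on mitochondrial genes, where the other ERRα3SA muscles had 9.15% to 9.85%, and a muscle fibre marker sum of 167660 CPM, where they had 80355 to 104120. Their part in these values was not tested.

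Without replicate 1, Rxrb was higher in ERRα3SA muscle (0.52 ± 0.07, adjusted p = 0.00880), as were Nr2f6 (0.41 ± 0.09, adjusted p = 0.0503) and Rarg (0.44 ± 0.16, adjusted p = 0.158), and Ppara kept its call. With it, the values were 0.21 (adjusted p = 1.00), 0.08 (adjusted p = 1.00) and 0.14 (adjusted p = 1.00). The 3 remaining ERRα3SA muscles were above all WT muscles for Rxrb and Nr2f6. Without the same library the tissue interaction was called for Nr2f6 (0.50 ± 0.11, adjusted p = 0.0364), Rxrb (0.57 ± 0.14, adjusted p = 0.0418), Nr1h2 (0.32 ± 0.10, adjusted p = 0.103) and Thrb (-0.38 ± 0.14, adjusted p = 0.158). Nr1h3 (0.25 ± 0.11, adjusted p = 0.244), Nr3c1 (-0.36 ± 0.15, adjusted p = 0.206) and Nr4a3 (2.01 ± 0.92, adjusted p = 0.258) also entered this count, as did Esr1 (-0.73). Nr1h3 and Nr4a3 had the tissue interaction called in 5 fits each with a sample left out and with DESeq2. It was also called for Rarb without WT littermate liver replicate 2 (-0.82) and for Nr6a1 without ERRα3SA liver replicate 4 (-0.63).

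**Figure D5:**
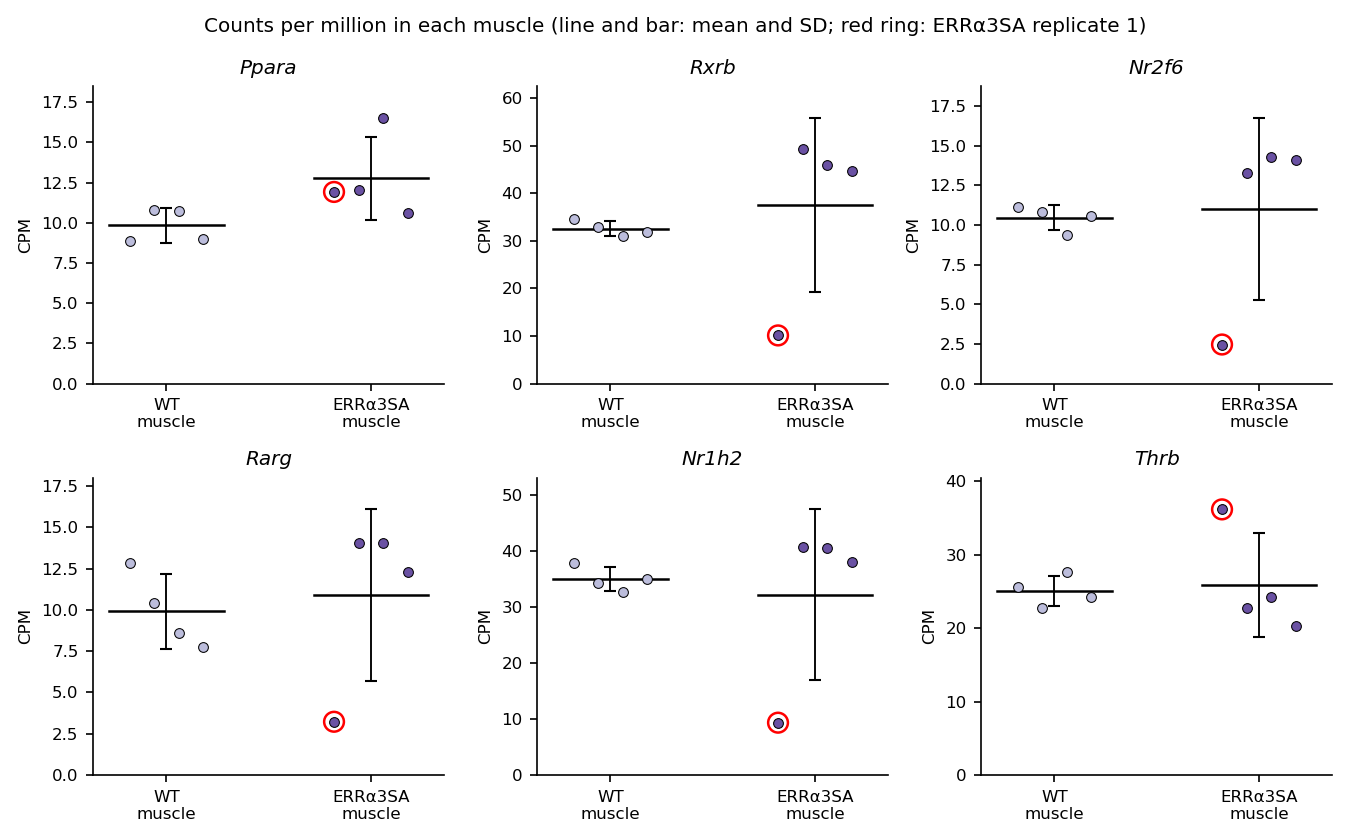
CPM of Ppara, Rxrb, Nr2f6, Rarg, Nr1h2 and Thrb in each WT and ERRα3SA muscle (points), with mean and standard deviation and a red ring around ERRα3SA replicate 1. Rxrb is at 10.1 in the ringed sample and at 44.8 to 49.2 in the other ERRα3SA muscles, against 31.0 to 34.6 in WT.

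Markers of the cell types that these tissues can hold were followed in the same fits, as lists for hepatocytes, Kupffer cells, sinusoidal endothelium, stellate cells or fibroblasts, cholangiocytes, muscle fibres, adipocytes and lymphocytes. Called markers with insulin in WT liver were sinusoidal Kdr -0.60, stellate Lrat -0.88 and muscle fibre Acta1, given as log2 fold changes, and no marker of any list was called with insulin in ERRα-/- liver. After saline, the markers called between ERRα-/- and WT livers were Kupffer cell Adgre1 -0.76 and Vsig4 -0.39, sinusoidal Kdr -0.43 and stellate Col1a1 -0.74. After insulin they were muscle fibre Myh4, and for the interaction stellate Lrat 0.82. No hepatocyte marker was called in these livers, where the list medians ran from -0.05 to 0.19. In ERRα3SA liver the called markers included Kupffer cell Vsig4 0.29, sinusoidal Lyve1 0.44, stellate Pdgfrb -0.39 and Lrat 0.33, cholangiocyte Krt19 -1.14, Krt7 -1.11 and Epcam -0.93 and lymphocyte Cd79a -1.17 and Ptprc 0.29. In ERRα3SA muscle they were cholangiocyte Krt19 -1.18 and Sox9 0.80 and adipocyte Retn -1.22, and the tissue interaction was called for Kupffer cell Vsig4, stellate Pdgfrb and adipocyte Adipoq. Summed bile duct markers stood at 12.6, 8.57, 10.8 and 14.0 CPM in ERRα3SA and 12.9, 9.75, 12.1 and 14.2 in WT livers, in groups that overlapped. Sox9 was the most abundant of them, at 6.73 to 11.7 CPM in ERRα3SA and 5.15 to 9.10 in WT livers, and was not called (0.38). The sums therefore mainly follow Sox9 and do not show the change of Krt19, Krt7 and Epcam. WT muscle against WT liver gave 5 lower of 5 hepatocyte markers, 4 lower of 4 Kupffer cell markers, 1 higher, 2 lower and 2 not called of 5 sinusoidal markers and 3 higher and 2 lower of 5 stellate markers. The same comparison gave 4 lower of 4 cholangiocyte markers, 5 higher of 5 muscle fibre markers, 5 higher of 5 adipocyte markers and 1 higher and 3 lower of 4 lymphocyte markers. ERRα3SA muscle replicate 4 had the highest sum of the Kupffer cell list among the muscles, 18.6 CPM, with Adgre1 at 17.6. Clec4f of that list had no count in the ERRα3SA muscles. The same muscle had the highest sum of the lymphocyte list, 16.2 CPM, with Ptprc at 15.5. These sums rest mainly on Adgre1 and on Ptprc and do not name a cell type. The part of other cells in any member value was not tested.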

How the data were processed

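RNA-seq read counts per gene of 31 samples in 8 groups were used, as deposited by the authors in 2 count tables (15 livers of the insulin experiment, and 16 livers and muscles of the ERRα3SA experiment), and the submitters' notes name STAR and mm10. The counts deposited by the authors were whole numbers that had not been scaled. Ensembl identifiers were matched to symbols with GENCODE vM21 (34490 of 35275 and 54409 of 54532). Depth ran from 20481405 to 48317108 counts per sample, and the smallest chi-square per degree of freedom between 2 replicates was 6.303, so replicates differed by more than counting noise.

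Each comparison was fitted on its own groups with edgeR 4.0.16 (TMM, filterByExpr, quasi-likelihood F test, 2-sided) in R 4.3.3, with p adjusted over all genes tested (Benjamini-Hochberg), and interactions on their 4 groups. Scripts were tested on simulated data. Thresholds were an unadjusted p under 0.05 with a fold of 1.2, an unadjusted p under 0.05 for interactions, and adjusted p < 0.05 with a fold of 2 between tissues, and fewer than 10 counts in every sample of a group was marked as too few. Alternatives were DESeq2 1.42.0, RLE size factors, no filter, the replicate number as a block, all 4 groups in one fit, removal of mitochondrial genome genes where muscle was used, and each sample left out.

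The 34 members, 12 gene lists (receptor targets, CREB-linked genes, coregulators and other nuclear receptors) and 8 marker lists were chosen with earlier results of these data known. Every called member is named, with every sample's value for called members with adjusted p < 0.05 and otherwise for the 4 with the largest fold change, and up to 3 called genes are named per list. Start site windows came from RefSeq annotation on GRCm38.p6 and were matched for 31 of the 34 members.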

Additional observations from a re-analysis of the deposited data

Results flagged for a closer look

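Of 68 groups of 4 samples tested for a sample far from the others, 6 held such a sample, and chance flags about 1 in 20 groups. The 68 did not cover every member in every group. Rxrb, Nr1h2, Nr2f6 and Rarg in ERRα3SA muscle, where replicate 1 stood apart, are not among the 6. Nor is Nr1h4 in WT insulin livers, where replicate 1 was lowest, so the tally is not read against that rate. The gap to the nearest sample, as a share of the group's range, was 1 for Nr0b2 in WT muscle replicate 2, 1 for Nr1i2 in WT muscle replicate 4 and 1 for Nr1i3 in WT muscle replicate 3, where the other 3 muscles had no count. With 3 samples at 0 this gap is 1 by construction, and the rate of 1 in 20 does not apply. It was 0.853 for Nr4a2 in WT muscle replicate 2 (5.91 CPM), 0.936 for Nr4a3 in ERRα-/- saline liver replicate 3 (0.609 CPM) and 0.909 for Nr5a2 in WT muscle replicate 1 (0.740 CPM).

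The effect of insulin differed between genotypes at unadjusted p under 0.05 for 7 members, none of them after adjustment. The adjusted p for the difference was 0.422 for Nr5a2, 0.488 for Thrb, 0.493 for Nr4a2, 0.543 for Nr4a3, 0.546 for Nr6a1, 0.546 for Nr2f2 and 0.557 for Pparg. The effect of ERRα3SA differed between muscle and liver for Esr1, with an adjusted p of 0.854.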

How the results depend on the processing

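No call changed sign in any alternative. Of 333 values of called members under alternatives that kept every sample, 321 stayed past the threshold and 12 did not, and of 549 values with 1 sample left out, 460 stayed and 89 did not. With 1 sample left out, the number of members called ran from 8 to 12 for insulin in WT liver, 10 to 16 for insulin in ERRα-/- liver, 2 to 5 between genotypes after saline, 4 to 9 between genotypes after insulin, 3 to 8 for the genotype by insulin interaction, 1 to 3 for ERRα3SA in liver, 0 to 4 for ERRα3SA in muscle, 0 to 8 for the tissue interaction and 18 to 19 between WT muscle and liver. For ERRα3SA in liver the count was 2 with no filter on low counts, and for ERRα3SA in muscle 0 with all 4 groups in one fit. The tissue interaction count was 3 with DESeq2, 3 with no filter and 2 without mitochondrial genome genes. The cause of these moves was not tested. Where no share of all genes is given with a count, the count was not compared with all genes.

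Samples with the same replicate number do not form pairs by the labels, and the deviations of 5 of 26 same-numbered pairs correlated above 0.1. With the replicate number as a block, the counts were 14 and 16 for insulin in WT and ERRα-/- liver, 4 and 10 between genotypes after saline and insulin, 7 for the interaction, 1 for ERRα3SA in liver, 0 in muscle, 1 for the tissue interaction and 19 between tissues. No share of all genes is given for the block fits, so these counts do not show if the members differ from all genes. Calls lost under the block were Nr2f6 and Rarb between genotypes after insulin (log2FC -0.42 and -0.98). The Nr4a3 interaction (-2.56) and Ppara in ERRα3SA muscle (0.37) were also lost, and other members gained a call.

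Limits are groups of 3 or 4 samples, few members with adjusted p < 0.05 outside the tissue comparison, bulk tissue, a deletion and an edit present in every cell, and transcript levels that give neither protein nor ligand. Some Nr4a2 and Nr4a3 values in liver rest on few counts. The labels of the ERRα3SA experiment give no feeding state, and the strand setting was not stated.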
